A study of Mus musculus and Homo sapiens with 176 samples.

Results

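Nuclear RNA of the mouse cerebellum was compared between nuclei that stained for NeuN (NeuN+) and nuclei that did not (NeuN-). The comparison covers 12951 features under 12850 gene symbols, out of 24854 features in each deposited table. They are the features that reached 1 FPKM, the fragments of a feature scaled to its length and to the depth of the library, in at least 2 of the 4 cerebellar libraries and had the quantification status OK in all 4. The NeuN+ group and the NeuN- group have 2 libraries each, numbered R1 and R2 in their titles. All 4 came from the mouse named M3, of the strain C57BL/6 and aged 8 to 10 weeks, and the labels name no transgene, mutation or treatment for either group. The study as a whole set marks on histones beside RNA for neurons and glia of cerebellum and prefrontal cortex, and its 168 chromatin samples were not used here. Per the labels' protocol, frozen cerebellum was homogenised with pestles, the nuclei were spun through a sucrose cushion and stained with a fluorescent antibody to NeuN, and the 2 groups were separated by flow cytometry. With 1 animal behind every library, and no label on what R1 and R2 share, a p-value here measures how far libraries scatter, possibly for technical reasons, and says nothing of how mice differ.

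NeuN is the antigen of the splicing factor Rbfox3 and marks the nuclei of most mature neurons. In the cerebellum it is strong in granule cells, the small glutamatergic neurons whose parallel fibres run to the Purkinje cell dendrites. Purkinje cells and many inhibitory interneurons of the molecular layer stain weakly or not at all. A NeuN- gate can therefore hold such neurons beside Bergmann glia (the radial astrocytes that wrap Purkinje cells), other astrocytes, oligodendrocytes and their precursors, microglia and cells of vessels and meninges.

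The libraries were close within a gate and apart between gates. FPKM summed to 290314 and 291064 in the NeuN+ libraries and to 289350 and 292215 in the NeuN- libraries, and features of at least 1 FPKM numbered 11295 and 11256 in NeuN+ and 12389 in each NeuN- library. Depth in fragments is unknown, since the tables hold no counts. Read from the confidence limits of features of at least 1 FPKM in all 8 libraries, it differed by at most 1.22 times among the 4 libraries. Spearman's rank correlation over the 14376 fitted features was 0.977 within either gate and 0.796 to 0.808 between gates, and no value above 0 was identical between libraries of a gate.

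Most of the members differed between the gates. In limma's fit of log2(scaled FPKM + 1), with Benjamini-Hochberg adjustment over 14376 features and a call at an adjusted p under 0.05, 4503 members were higher in NeuN+ (34.8% of 12951) and 5220 were lower (40.3%), so that 75.1% changed and 3228 did not pass. Over all 14376 features of the fit, those not expressed in cerebellum included, 32.4% were called higher, 39.2% lower and 71.6% either way, with 8.25% higher and 17.1% lower by at least 2-fold. Among the members, changes of at least 2-fold were fewer and less even, with 1176 members higher (9.08%) and 2429 lower (18.8%). At each larger fold level the lower members were also the more numerous: 180 were at least 4-fold higher and 801 at least 4-fold lower, 42 and 238 at least 8-fold, and 29 and 82 at least 16-fold. The median log2 change was -0.05, and quantile normalization moved it to 0.09, with 5397 higher and 4475 lower. The libraries of the gates did not overlap in 88.4% of members and 85.4% of fitted features, so a lack of overlap says little by itself. Folds below are of scaled FPKM + 1 and understate the change of low genes, whereas FPKM are given as deposited.

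The rule that admits a member on 2 libraries also shapes these counts. Of the 12951 members, 595 reached 1 FPKM in NeuN+ libraries and in no NeuN- library, and 573 of them were higher. Another 1605 reached it in NeuN- libraries and in no NeuN+ library, and 1584 of them were lower. Such members could hardly fail to differ, and their number is given below for some of the gene lists, not for all. Among the 10751 members that reached the level in both gates, 3930 were higher (36.6%) and 3636 lower (33.8%), with 844 and 1124 changed at least 2-fold and a median log2 change of 0.03. Members of at least 1 FPKM in both libraries of their gate and listed at 0 in both libraries of the other numbered 104 on the NeuN+ side, 63 of them protein-coding and 30 miRNA or snoRNA features, and 421 on the NeuN- side, 331 of them protein-coding. An exact 0 in these tables can be a failed estimate, so no fold is given against such a group, although such members are among those counted and ranked by the fit. Of the members 3083 (23.8%) overlap another feature, and without a stated strand their reads cannot be assigned with certainty.

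**Figure D1:**
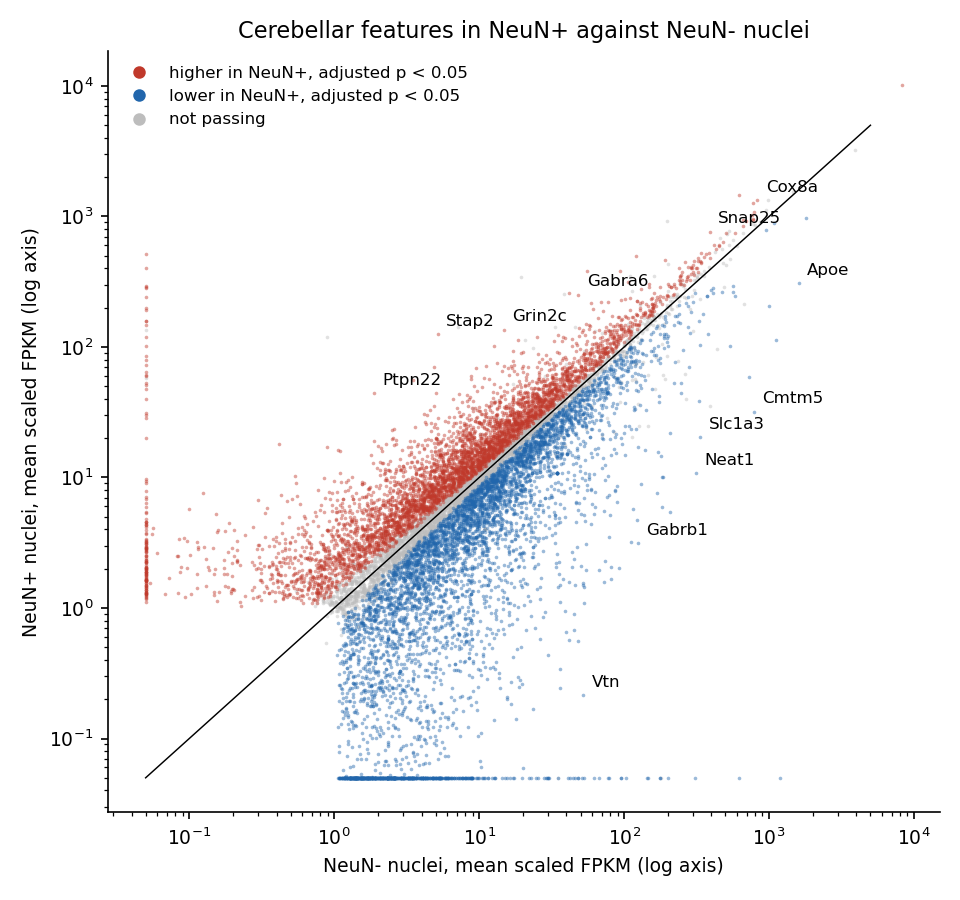
Mean scaled FPKM of each of the 12951 members in NeuN+ (y) against NeuN- (x) cerebellar nuclei, n = 2 libraries each, both axes logarithmic; red points were called higher in NeuN+, blue points lower, grey points did not pass, and members listed at 0 are drawn at 0.05. The 1176 members at least 2-fold higher and the 2429 at least 2-fold lower lie on either side of the line of equal level, and the cloud below the line is the wider one.

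The labelled gates were checked against markers. Rbfox3 itself stood at 123 and 119 FPKM in NeuN+ and 33.3 and 34.5 FPKM in NeuN-, so the message of the antigen was lower in NeuN- but far from absent. All 18 granule cell markers were members and were higher in NeuN+, with a median log2 change of 1.64. Their FPKM summed to 1466 and 1482 in NeuN+ and 443 and 451 in NeuN-, and each marker's NeuN- level was between 6.89% (Slc17a7, a vesicular glutamate transporter) and 54.8% (Vsnl1, a calcium sensor) of its NeuN+ level, with a median of 31.4%. Bulk nuclei give no way to tell fewer nuclei of a type from less RNA in each nucleus, here or in any result below.

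Markers of glia lay on the other side, and a part of their signal remained in NeuN+. All 20 oligodendrocyte markers were lower in NeuN+ (median log2 change -2.37), and their FPKM summed to 294 and 292 in NeuN+ and 2086 and 2136 in NeuN-. Of 17 astrocyte members 16 were lower (239 and 229 in NeuN+ and 1069 and 1087 in NeuN-, summed over the list), and all 13 Bergmann glia members were lower (342 and 341 in NeuN+ and 1870 and 1872 in NeuN-). Of these lists, 5 oligodendrocyte, 2 astrocyte and 2 Bergmann glia members reached the level in NeuN- libraries alone. The median NeuN+ level was 14.3% of the NeuN- level for oligodendrocyte markers, 13.9% for astrocyte markers and 17.2% for Bergmann glia markers. Among microglial markers 11 of 13 members were lower, 6 of the 13 having reached the level in NeuN- libraries alone. The purinergic receptor gene P2ry12, a defining marker that overlaps Med12l, did not pass, at 2.98 and 4.5 FPKM in NeuN+ and 3.47 and 3.9 FPKM in NeuN-. The sums of that list were 27.8 and 30.8 in NeuN+ and 92.1 and 93 in NeuN-. Precursor markers had 7 of 8 members lower, 4 of the 8 having reached the level in NeuN- libraries alone. Lhfpl3 alone was higher, at 1.83 and 2.0 FPKM in NeuN+ and 1.06 and 1.31 FPKM in NeuN-.

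Markers of vascular and meningeal cells were unevenly represented in NeuN-. Of 17 vascular markers 7 were members, and 6 of these were lower in NeuN+. Among the 7 members, 5 reached the level in NeuN- libraries alone. The pericyte receptor gene Pdgfrb had 0.0798 and 0.0507 FPKM in NeuN+ and 8.93 and 10.7 FPKM in NeuN-, and the mural gene Vtn 0.346 and 0.0684 FPKM in NeuN+ and 48.3 and 53.4 FPKM in NeuN-. The endothelial genes Cldn5 and Flt1 read 0 in each NeuN+ library and at most 0.127 FPKM in either NeuN- library. The endothelial Ly6c1 read 0 in each NeuN+ library and 4.33 and 4.12 FPKM in NeuN-, and Kdr 0.136 and 0.121 FPKM in NeuN+ and 1.02 and 0.604 FPKM in NeuN-. Pecam1 and Tek, also endothelial, went the other way at low level. Pecam1 had 0.546 and 0.56 FPKM in NeuN+ and Tek 0.0547 and 0.0243 FPKM, and both read 0 in each NeuN- library. Other mural and fibroblast markers were as low as the endothelial ones, such as Myh11 at 0 in each NeuN+ library and 0.272 and 0.347 FPKM in NeuN- and Col1a1 at 0 in each NeuN+ library and 0.086 and 0.0822 FPKM in NeuN-. All 5 fibroblast members, which reached the level in NeuN- libraries alone, were lower; the list summed to 0.331 and 0.338 FPKM in NeuN+ and 48.3 and 49.7 FPKM in NeuN-. Haemoglobin genes, the mark of red blood cell RNA, summed to 864 and 869.7 FPKM in NeuN+ and 777 and 779 FPKM in NeuN-; the near-identical copies Hba-a1 and Hba-a2 cannot be told apart by short reads, and of the list's 6 members Hbb-b1 alone passed the test (1.23-fold higher). That call was lost without NeuN+ replicate 1, NeuN+ replicate 2 or NeuN- replicate 1 (limma adjusted p = 0.0647, 0.0965 and 0.0848).

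Marker lists of neurons other than granule cells differed in direction. Over all members 34.8% were higher and 40.3% lower. Of 14 members of the molecular layer interneuron list 12 were lower in NeuN+ and 2 did not pass, with a median log2 change of -1.51; 3 of them reached the level in NeuN- libraries alone. The GABA synthesis gene Gad1 had 17.6 and 18.1 FPKM in NeuN+ and 51.2 and 53.1 FPKM in NeuN-, and the vesicular GABA transporter gene Slc32a1, which did not pass and was called higher under quantile normalization, had 2.26 and 2.27 FPKM in NeuN+ and 2.45 and 2.56 FPKM in NeuN-. Purkinje markers gave 6 higher, 3 lower and 4 not passing of 13. Pcp2, a G protein modulator of Purkinje cells, stood at 398 and 396 FPKM in NeuN+ and 358 and 389.7 FPKM in NeuN-, where the libraries of the gates did not overlap but the test did not pass (adjusted p = 0.682), and Pcp2 overlaps Pet100. The Purkinje factor Skor2 was listed at 0 in all 4 libraries. Unipolar brush cell markers had 4 higher and 2 not passing of 6, and 1 of the 4, Calb2, is also on the granule cell list. Of the 10 markers of Golgi and nuclear neurons 4 were members, 3 of them higher. Of 7 choroid plexus and ependymal markers 3 were members (2 higher, 1 lower), and of 7 forebrain neuron markers 1 was a member, Slc30a3, at 2.18 and 2.23 FPKM in NeuN+ and 0.179 and 0.235 FPKM in NeuN-.

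**Figure D2:**
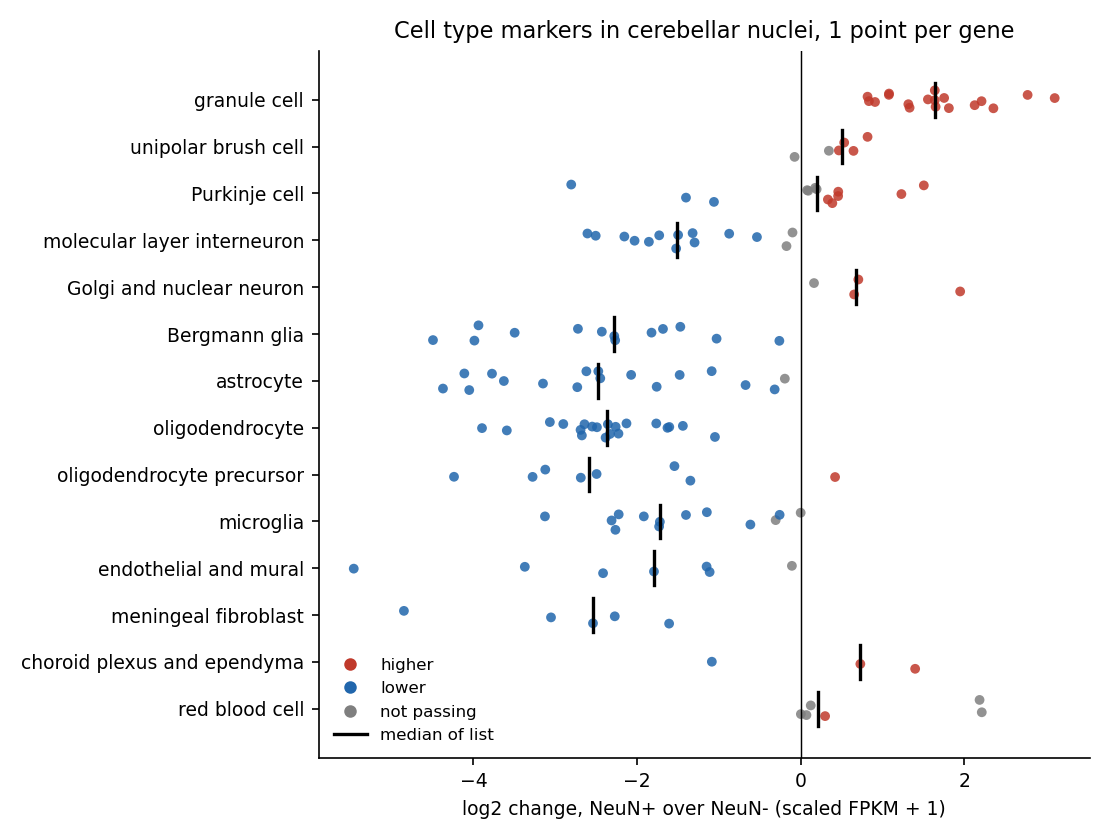
Log2 change in NeuN+ over NeuN- nuclei, on the scale of scaled FPKM + 1, of each marker that was a member, 1 point per gene and 1 row per cell type; black bars are list medians, from 1.64 for granule cells to -2.59 for oligodendrocyte precursors. Granule cell points all lie right of 0, points of oligodendrocytes and Bergmann glia all lie left of 0, and Purkinje points lie on both sides.

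The largest differences in absolute level were led by different kinds of gene on the 2 sides. Here and in the other choices by size, predicted genes, small RNA features and histone genes were left out, and the gate with the higher mean had to reach 5 scaled FPKM. On the NeuN+ side, 7 of the 12 genes chosen by size were nuclear-encoded subunits of the mitochondrial respiratory chain and ATP synthase, which make ATP from the oxidation of fuels. On the NeuN- side stood genes of myelin, of astrocytic lipid and metal handling, and of RNA processing. The 12 higher genes made up 3.36% and 3.37% of all FPKM in the NeuN+ libraries and 2.14% and 2.15% in the NeuN- libraries. The 12 lower genes made up 0.789% and 0.798% in NeuN+ and 3.22% and 3.27% in NeuN-. The largest limma adjusted p among the 12 higher genes was 0.0129, and among the 12 lower genes 2.0e-04.

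Cox8a, the smallest nuclear-encoded subunit of cytochrome c oxidase (chromosome 19, 7289648 to 7292106, mm9), led the higher genes by level. It had 1274 and 1318 FPKM in NeuN+ and 794 and 825 FPKM in NeuN-, a 1.6-fold higher level in NeuN+ (log2 change 0.68, SE 0.0926, limma adjusted p = 5.7e-04). Cox6a1, of the same enzyme, had 930.1 and 874 FPKM in NeuN+ and 683 and 659.6 FPKM in NeuN- (1.34-fold higher), and its call was lost when NeuN+ replicate 1 or NeuN- replicate 2 was left out (limma adjusted p = 0.0762 and 0.0739). For both genes the NeuN+ libraries lay above the NeuN- libraries. Ndufa4 (1077 and 1033 FPKM in NeuN+, 751 and 788 FPKM in NeuN-) and Ndufb7 (710.1 and 745 FPKM in NeuN+, 485 and 489.8 FPKM in NeuN-) were 1.37-fold and 1.49-fold higher, and Uqcrq, a subunit of the cytochrome bc1 complex, was 1.42-fold higher. The ATP synthase genes Atp5j and Atp5h rose 1.34-fold and 1.29-fold, although Atp5j overlaps Gabpa. These changes were small as folds and large as levels.

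The remaining 5 genes were of neurons or noncoding. Calm2, which encodes the calcium sensor calmodulin, had 1218 and 1253 FPKM in NeuN+ and 765 and 747 FPKM in NeuN- (1.64-fold higher). Snap25, the SNARE protein that drives fusion of synaptic vesicles, had 736 and 748 FPKM in NeuN+ and 379 and 382 FPKM in NeuN- (1.95-fold higher). Gabra6, the GABA-A receptor subunit of granule cells, had 240.5 and 248 FPKM in NeuN+ and 47 and 47.1 FPKM in NeuN-. It was 5.11-fold higher, with an SE of 0.111 on the log2 scale and an adjusted p of 4.2e-06, and the libraries of the gates lay far apart. Of the imprinted noncoding RNAs Ipw and Meg3, Ipw had 378 and 371 FPKM in NeuN+ and 95 and 86.4 FPKM in NeuN- and Meg3 had 449 and 459 FPKM in NeuN+ and 182 and 193 FPKM in NeuN-; both overlap small RNA features.

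Apoe, the carrier of cholesterol between brain cells (chromosome 7, 20281593 to 20284537, mm9), led the lower genes by level. It had 294 and 309 FPKM in NeuN+ and 1541 and 1565 FPKM in NeuN-, and was 5.13-fold lower (scaled means 309.8 ± 9.5 in NeuN+ and 1595 ± 9.44 in NeuN-, SD, n = 2; log2 change -2.36, SE 0.0557, limma adjusted p = 4.4e-07). Ptgds, which makes prostaglandin D, had 113 and 107 FPKM in NeuN+ and 1070 and 1113 FPKM in NeuN- (9.81-fold lower). Slc1a3, the glutamate transporter of Bergmann glia, had 20.8 and 18.6 FPKM in NeuN+ and 324 and 329 FPKM in NeuN- (15.9-fold lower). In these genes each NeuN+ library was below both NeuN- libraries.

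Other genes among these 12 were also lower in every NeuN+ library. Mbp, of the compact myelin sheath, had 58.8 and 56.5 FPKM in NeuN+ and 696 and 716 FPKM in NeuN- (12.1-fold lower). Trf, which encodes the iron carrier transferrin, was 8.37-fold lower, the septin gene Sept4 4.85-fold and Cmtm5, a membrane protein gene, 23.9-fold. Rsrp1, an arginine- and serine-rich protein gene, stayed high in both gates, at 934 and 948 FPKM in NeuN+ and 1707 and 1779 FPKM in NeuN- (1.85-fold lower). Neat1, the noncoding RNA that builds nuclear paraspeckles, had 10.7 and 10.2 FPKM in NeuN+ and 304 and 309.9 FPKM in NeuN-. The metallothionein gene Mt1 was 2.12-fold lower.

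**Figure D3:**
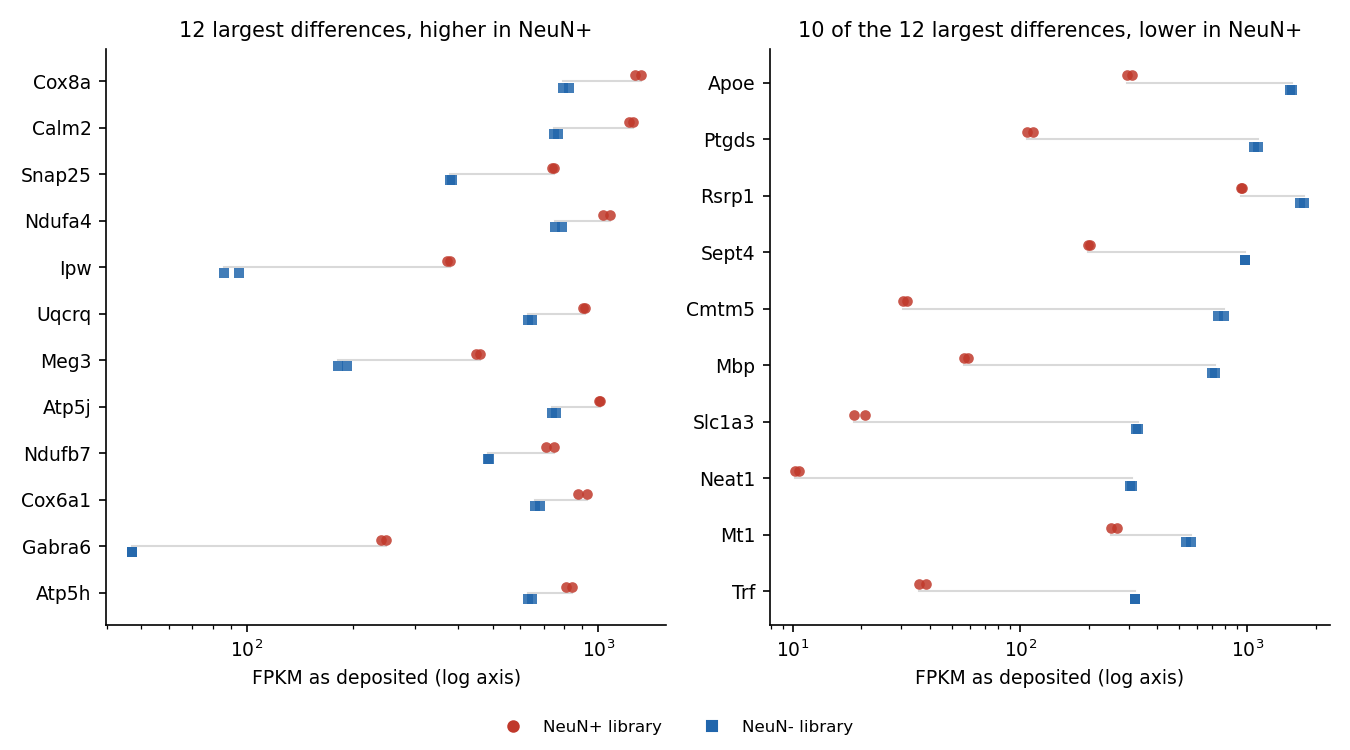
FPKM as deposited of 12 genes with the largest difference of mean level in the higher direction and 10 of the 12 in the lower, on logarithmic axes; red circles are the NeuN+ libraries and blue squares the NeuN- libraries, 2 each. Libraries of a gate lie close together in every row, and the gap is narrow for respiratory chain genes such as Cox8a and wide for Gabra6, Cmtm5, Slc1a3 and Neat1.

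The CpG content of the DNA before the transcription start went with how often members changed at least 2-fold, and 4 of the genes above give examples. A CpG ratio, the observed over the expected number of CG pairs, was computed over the 250 bases before the RefSeq start (GRCm38.p6) of 9575 protein-coding members. Examples were drawn from 7 of the genes with the largest differences in each direction. The other genes of that choice were not compared, and their ratios may lie beyond those shown. The lowest and the highest ratio among the 7 of each direction are shown from 5′ to 3′, with CG pairs in capitals. Gabra6 (chr11:42321073-42321322, minus strand) has 2 CG pairs and a ratio of 0.198, and Cox6a1 (chr5:115348959-115349208, minus strand) has 26 and 1.06. Cmtm5 (chr14:54936220-54936469, plus strand) has 0 CG pairs, and Rsrp1 (chr4:134923375-134923624, plus strand) has 22 and a ratio of 1.06.
Gabra6: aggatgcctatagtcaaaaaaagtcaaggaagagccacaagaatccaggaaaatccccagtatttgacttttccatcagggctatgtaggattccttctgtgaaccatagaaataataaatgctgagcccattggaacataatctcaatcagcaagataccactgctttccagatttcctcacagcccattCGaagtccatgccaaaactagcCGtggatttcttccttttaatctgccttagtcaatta
Cox6a1: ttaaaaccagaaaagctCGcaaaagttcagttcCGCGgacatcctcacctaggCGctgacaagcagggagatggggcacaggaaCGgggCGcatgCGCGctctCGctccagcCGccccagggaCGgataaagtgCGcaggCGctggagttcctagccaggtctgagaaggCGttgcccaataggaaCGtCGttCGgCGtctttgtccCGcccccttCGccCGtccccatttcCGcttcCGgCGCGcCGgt
Cmtm5: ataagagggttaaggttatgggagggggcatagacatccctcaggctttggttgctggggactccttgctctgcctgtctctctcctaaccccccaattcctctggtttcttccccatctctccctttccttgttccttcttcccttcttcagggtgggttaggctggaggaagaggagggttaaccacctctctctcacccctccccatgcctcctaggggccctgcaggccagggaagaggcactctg
Rsrp1: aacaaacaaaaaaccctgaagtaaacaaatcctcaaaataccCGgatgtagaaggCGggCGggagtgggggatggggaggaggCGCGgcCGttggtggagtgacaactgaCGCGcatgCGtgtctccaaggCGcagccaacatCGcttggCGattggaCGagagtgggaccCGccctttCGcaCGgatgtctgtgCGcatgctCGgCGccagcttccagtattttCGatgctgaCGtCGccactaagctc

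In these 4 genes the large folds stand with the CpG-poor sequences. Gabra6 was 5.11-fold higher and Cmtm5 23.9-fold lower, whereas Cox6a1 was 1.34-fold higher and Rsrp1 1.85-fold lower. Over all 9575 promoters the share changed at least 2-fold fell as the ratio rose. Where it was under 0.25 (935 members), 11.8% were at least 2-fold higher and 32.0% at least 2-fold lower. Where it was over 0.75 (4467 members), 7.41% were at least 2-fold higher and 12.7% at least 2-fold lower, against 8.80% and 18.4% of all promoters examined. With a pseudocount of 5 instead of 1 the first class held 36 higher and 99 lower instead of 110 and 299, and the second 116 and 178 instead of 331 and 567. Level moved with the ratio: the median scaled FPKM was 3.68 in the lowest class and 8.32 in the highest, and its part in the result was not tested. The median ratio was 0.667 for members at least 2-fold higher, 0.615 for those at least 2-fold lower and 0.728 for all. Calls of any size did not show the same fall in both directions. Where the ratio was under 0.25, 27.8% were called higher and 49.3% lower. Where it was over 0.75, 37.6% were called higher and 36.9% lower.

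Short motifs were searched in the same windows. The TATA box letters TATAAA were found on either strand in 6.52% of the promoters of members at least 2-fold higher, in 7.79% of those at least 2-fold lower, in 6.26% of all members' promoters and in 13% of the 27025 promoters of the table. CAGATG, an E-box bound by NeuroD factors, stood in 10.6%, 12.2%, 9.84% and 14.5% of the same 4 sets. CCGGAAGT, a site of Ets factors that holds a CG pair, was found in 3.56%, 3.41%, 5.81% and 2.93%. TGACGTCA, the cyclic AMP response element, which also holds a CG pair, was found in 2.73%, 1.93%, 2.83% and 1.62%. ACAATG, a core bound by Sox factors, stood in 6.05%, 6.99%, 6.06% and 11%. No test was made of these shares, and an absent motif says only that its letters are not in the window.

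**Figure D4:**
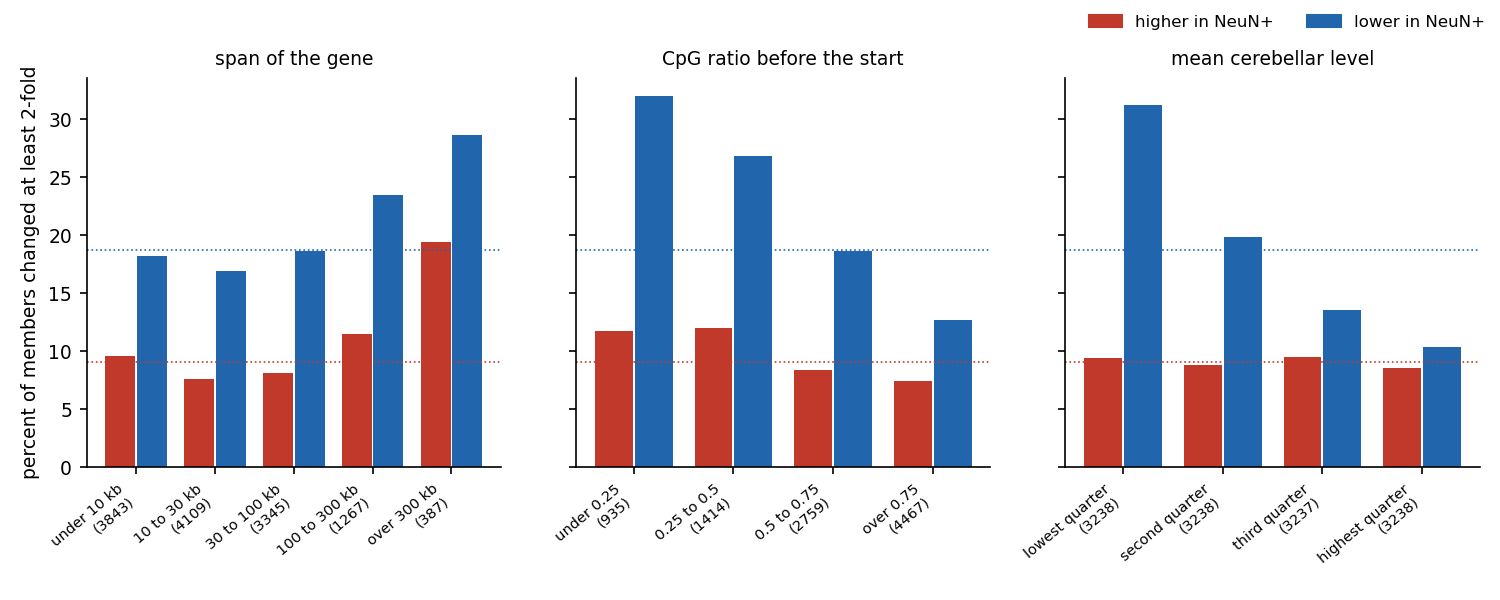
Percent of members called at least 2-fold higher (red, left) or lower (blue, right) in NeuN+ by gene span, by CpG ratio of the 250 bases before the start and by 4 equal classes of mean level, with the number of members under each class; dotted lines give the shares over all members, 9.08% and 18.8%. Blue bars run from 32.0% in the CpG-poorest class to 12.7% in the CpG-richest and from 31.3% in the lowest class of level to 10.4% in the highest, while red bars change less.

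Changes of at least 2-fold were most frequent in long genes. Among 387 members that span over 300 kb, 19.4% were at least 2-fold higher and 28.7% at least 2-fold lower, and among 3843 members under 10 kb these shares were 9.63% and 18.2%. With a pseudocount of 5 the longest class held 31 higher and 38 lower instead of 75 and 111. This class had a median of 3.93 scaled FPKM, against 6.99 over all members, and the part of level in the result was not tested. Of 4 equal classes by level, the lowest had 9.42% at least 2-fold higher and 31.3% at least 2-fold lower, and the highest 8.52% and 10.4%. Of 690 long noncoding RNA features 177 were higher (25.65%) and 302 lower (43.77%), against 34.8% and 40.3% of all members. Of 136 miRNA features, for which FPKM are imprecise, 29 were higher (21.32%) and 26 lower (19.12%). The X chromosome had the highest share of members higher of any chromosome, 41.3% of 424.

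The 12 genes chosen for the size of their fold in the NeuN+ direction had diverse roles. Predicted genes and small RNA features, some with larger folds, were not eligible. Stap2, a signalling adaptor (chromosome 17, 56136499 to 56145029, mm9), had 119 and 124 FPKM in NeuN+ and 5.09 and 5.0 FPKM in NeuN-, and was 20.4-fold higher (scaled means 125 ± 2.52 in NeuN+ and 5.18 ± 0.0943 in NeuN-, SD, n = 2; SE 0.122 on the log2 scale, limma adjusted p = 6.7e-07). Ptpn22, a tyrosine phosphatase best known from lymphocytes (chromosome 3, 103663718 to 103716175, mm9), had 43.5 and 43 FPKM in NeuN+ and 1.87 and 1.8 FPKM in NeuN-. Bcl2l15, a Bcl2 family gene that ends shortly before Ptpn22 begins (chromosome 3, 103636619 to 103658541, mm9), had 44.4 and 42.3 FPKM in NeuN+ and 4.9 and 4.92 FPKM in NeuN-. They were 15.8-fold and 7.54-fold higher, and in both genes each NeuN+ library was far above either NeuN- library.

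Receptors and surface proteins were among them. Il20rb, a subunit of interleukin receptors, had 53.6 and 54.3 FPKM in NeuN+ and 3.4 and 3.36 FPKM in NeuN- (12.6-fold higher). Grin2c, the NMDA receptor subunit that replaces Grin2b as granule cells mature, had 131 and 132 FPKM in NeuN+ and 14.7 and 14.2 FPKM in NeuN- (8.59-fold higher). Epha3, a receptor for ephrins on neighbouring cells, had 17.1 and 16.2 FPKM in NeuN+ and 0.956 and 0.783 FPKM in NeuN- (9.59-fold higher), and the adhesion gene Cdh8, which overlaps a predicted gene, was 8.34-fold higher. Car9, a membrane carbonic anhydrase, had 15.3 and 16 FPKM in NeuN+ and 0.908 and 1.23 FPKM in NeuN-. Ltbp2, which binds elastic fibres and overlaps another feature, had 17.5 and 17.4 FPKM in NeuN+ and 0.342 and 0.47 FPKM in NeuN-. The NeuN- libraries listed 0 for Mpzl3 (7.7 and 11.2 FPKM in NeuN+), Ccdc69 (7.81 and 7.46 FPKM in NeuN+) and Ly6g5b (6.75 and 7.05 FPKM in NeuN+).

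In the other direction, the 12 genes chosen in the same way had at most 3.26 FPKM in any NeuN+ library. Vtn, the matrix protein vitronectin made by pericytes (chromosome 11, 78312622 to 78315827, mm9), had 0.346 and 0.0684 FPKM in NeuN+ and 48.3 and 53.4 FPKM in NeuN- (44-fold lower, SE 0.131 on the log2 scale, limma adjusted p = 4.5e-07). Gabrb1, a GABA-A receptor subunit, had 3.26 and 2.83 FPKM in NeuN+ and 121 and 120.3 FPKM in NeuN- (30.3-fold lower). Atp13a4, a P-type ATPase, had 0.419 and 0.678 FPKM in NeuN+ and 46.3 and 46.7 FPKM in NeuN-. In each of these the NeuN+ values were a small fraction of either NeuN- value.

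Enzymes and vesicle proteins made up most of the rest. Cbs, which condenses homocysteine with serine, had 0.684 and 0.632 FPKM in NeuN+ and 43.7 and 44.5 FPKM in NeuN- (27.6-fold lower), and Pipox, a peroxisomal oxidase of pipecolic acid, was 30.1-fold lower. Gsap, a regulator of gamma-secretase, had 1.51 and 1.74 FPKM in NeuN+ and 79.1 and 77.9 FPKM in NeuN- (30.6-fold lower). Litaf, a late endosomal protein, was 28.4-fold lower, the small GTPase gene Rab29 30.1-fold, the membrane protease gene Tmprss5 29.8-fold and the interferon-induced gene Ifi35 30.3-fold. Ttll3, a tubulin glycylase whose feature overlaps Arpc4, had 2.28 and 1.69 FPKM in NeuN+ and 89.8 and 89.6 FPKM in NeuN-. Slc6a13, a GABA and taurine transporter of meninges, read 0 in each NeuN+ library and 26.4 and 27.8 FPKM in NeuN-.

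Gene families are given next in the order of their roles, from channels to the nucleus, with counts over the members of each list. The share of all members called, 34.8% higher and 40.3% lower, is the yardstick for each count. The lists were drawn up with earlier results of these data known, and no test was made of any list. Ank3, the neurexins Nrxn2 and Nrxn3, Ptprs, Ptprf, Glul, Slc1a1, Hk1, Slc2a1, the aldolase Aldoa, the phosphorylases, Irf9, Ifit3, Isg15, Ifitm3, Ifi27, the class I antigen genes and the further Hedgehog and Notch members were named after their values were seen. Among the genes below, Chrnb2 overlaps Adar, Gli1 overlaps Arhgap9, Gls2 overlaps Spryd4, Ifi27 overlaps Ifi27l2a, H2-D1 overlaps H2-L, and Gad1, Hk1, Id4, Nfasc, Kcnn2 and Rora overlap noncoding or predicted features. Dner, Glul, Gli2, Notch1, Ptprf, Ptprs, Boc, Ftx and Ndufa10 overlap miRNA features, and Gas5 a snoRNA feature.

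Voltage-gated channels of the axon were mostly higher in NeuN+. Of 41 sodium and calcium channel features 24 were members, with 16 higher, 6 lower and 2 not passing (median log2 change 0.63; 3 reached the level in NeuN+ alone and 3 in NeuN- alone). Scn2a1, a sodium channel of axon initial segments, had 55 and 56.4 FPKM in NeuN+ and 11.3 and 11.4 FPKM in NeuN- (4.62-fold higher), and the sodium leak channel gene Nalcn was 3.09-fold higher. The calcium channel gene Cacna1a lacked the status OK in some library and is not a member. Genes of the initial segment and the node of Ranvier gave 11 higher, 2 lower and 3 not passing of 16. Ank3, the scaffold that assembles the segment, was 1.78-fold higher and the nodal adhesion gene Cntnap2 3.47-fold. Nfasc, an adhesion molecule with neuronal and glial forms, went the other way, with 3.46 and 3.36 FPKM in NeuN+ and 10.5 and 10.7 FPKM in NeuN- (2.63-fold lower).

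Potassium channels divided, with 26 of 49 members higher, 18 lower and 5 not passing (93 features in the tables; 7 members reached the level in NeuN+ alone and 10 in NeuN- alone). Kcnk10, a leak channel, had 19 and 18.3 FPKM in NeuN+ and 1.88 and 1.79 FPKM in NeuN- (6.99-fold higher). Kcnc1, which allows fast firing, had 73.8 and 72.1 FPKM in NeuN+ and 12.5 and 13.4 FPKM in NeuN- (5.31-fold higher). The calcium-activated channel gene Kcnn2, known in Purkinje cells, had 3.12 and 3.21 FPKM in NeuN+ and 24.7 and 24.8 FPKM in NeuN- (6.22-fold lower). Channels of the TRP, ASIC, P2X and HCN families leaned to NeuN-, with 14 of 20 members lower and 4 higher. Among the 20 members, 5 reached the level in NeuN- alone and 1 in NeuN+ alone. P2rx7, an ATP-gated channel of glia, had 1.08 and 2.36 FPKM in NeuN+ and 8.29 and 8.88 FPKM in NeuN- (3.65-fold lower). Trpc7 was 4.32-fold lower and Trpv2 2.66-fold higher.

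Transmitter receptor lists held subunits of either direction, as did all members, of which 34.8% were higher and 40.3% lower. Ionotropic glutamate receptor genes had 7 members higher, 7 lower and 1 not passing of 15. Grin2a, an NMDA receptor subunit, had 8.74 and 9.39 FPKM in NeuN+ and 1.02 and 1.15 FPKM in NeuN- (4.88-fold higher). Gria1, an AMPA receptor subunit that Bergmann glia express, had 5.52 and 5.21 FPKM in NeuN+ and 69.9 and 71.2 FPKM in NeuN- (11.3-fold lower). Metabotropic glutamate receptors had 3 of 6 members higher and 3 lower, and Grm4, the presynaptic metabotropic receptor of parallel fibres, was 6.83-fold higher.

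GABA and glycine receptor genes were split in the same way, with 7 of 13 members higher and 6 lower. Gabrd, which forms extrasynaptic receptors with Gabra6, had 112 and 117 FPKM in NeuN+ and 37 and 39.7 FPKM in NeuN- (2.94-fold higher). Gabra2 had 0.499 and 0.887 FPKM in NeuN+ and 6.18 and 4.53 FPKM in NeuN- (3.79-fold lower). Among amine and acetylcholine receptors 8 of 50 features were members, with 3 higher and 5 lower. The nicotinic receptor gene Chrnb2 was 1.27-fold higher (limma adjusted p = 0.0167), and its call was lost without NeuN+ replicate 2 (adjusted p = 0.0856), NeuN- replicate 1 (0.0749) or NeuN- replicate 2 (0.0547), or at a pseudocount of 0.1 (0.0677).

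Genes that make, move and break down glutamate and GABA went opposite ways at different steps. Of 24 members 6 were higher, 15 lower and 3 did not pass (median log2 change -0.75). Gls2, which releases glutamate from glutamine, had 27 and 31.6 FPKM in NeuN+ and 4.08 and 4.41 FPKM in NeuN- (5.79-fold higher). Glul, which makes glutamine in astrocytes, had 14.7 and 15 FPKM in NeuN+ and 63.3 and 64 FPKM in NeuN- (4.09-fold lower), and the glutamine exporter gene Slc38a3 had 1.86 and 1.98 FPKM in NeuN+ and 54.5 and 51.5 FPKM in NeuN- (18.6-fold lower). Among plasma membrane glutamate transporters the glial Slc1a2 and Slc1a3 were 3.39-fold and 15.9-fold lower, and the neuronal Slc1a1 and Slc1a6 were 1.73-fold and 2.83-fold higher.

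At the parallel fibre synapse, granule cells release cerebellins that bridge presynaptic neurexins and postsynaptic receptors. Of 25 features of this list 16 were members, with 11 higher, 3 lower and 2 not passing. Cbln3 had 214 and 215 FPKM in NeuN+ and 69.3 and 66.6 FPKM in NeuN- (3.13-fold higher), and Cbln1 was 2.49-fold higher. The neurexin genes Nrxn2 and Nrxn3 were 2.67-fold and 2.07-fold higher. Among receptor phosphatases that bind organizers, Ptprs was 2.07-fold higher while Ptprd and Ptprf were 1.85-fold and 1.75-fold lower.

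Lists of vesicle and surface proteins mostly held members of either direction. Of 66 vesicle protein members 38 were higher and 20 lower. Erc1, an active zone scaffold, had 56.8 and 58.9 FPKM in NeuN+ and 8.23 and 9.0 FPKM in NeuN- (6.15-fold higher), and Rims2 was 3.17-fold higher. Syt10, a calcium sensor of exocytosis, read 0 in each NeuN+ library and 22.1 and 22.1 FPKM in NeuN-. Contactins and other immunoglobulin adhesion genes had 16 of 33 members higher and 10 lower, with Cntn6 6.1-fold and Cntnap4 5.79-fold higher and the limbic adhesion gene Lsamp 6.8-fold lower, with 5.95 and 6.44 FPKM in NeuN+ and 48.5 and 47.2 FPKM in NeuN-. Of 7 teneurin, neurexin and neuroligin members 5 were higher and 0 lower. Tenm1, a teneurin, had 5.08 and 5.12 FPKM in NeuN+ and 0.134 and 0.162 FPKM in NeuN- (5.42-fold higher). Cadherins had 8 of 20 members higher and 10 lower, where 7 of the 20 reached the level in NeuN- alone and 1 in NeuN+ alone. Among them Cdh10 had 0 and 0.0165 FPKM in NeuN+ and 7.2 and 5.9 FPKM in NeuN- (7.63-fold lower).

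Lists of intracellular signalling genes held members of either direction, as did all members, of which 34.8% were higher and 40.3% lower. Of 28 cyclase and phosphodiesterase members 12 were higher and 10 lower, and of 36 members among protein kinases A and C and calmodulin kinases 15 were higher and 13 lower. Phospholipases, diacylglycerol kinases and calcium release channels had 14 higher and 16 lower of 35, and G protein subunits and Rgs genes 11 higher and 17 lower of 34, with 7 higher without NeuN- replicate 1. Adcy1, the calcium-stimulated adenylyl cyclase, had 88.5 and 87.6 FPKM in NeuN+ and 18.8 and 19.1 FPKM in NeuN- (4.47-fold higher), and Adcy2 was 4.04-fold lower. The phosphodiesterase Pde1c was 5.93-fold higher, and Pde8a had 0.0239 and 0.0213 FPKM in NeuN+ and 8.65 and 8.28 FPKM in NeuN- (9.46-fold lower). Camk2b, a calmodulin kinase subunit of the cerebellum, had 63.7 and 63.2 FPKM in NeuN+ and 13.8 and 14.3 FPKM in NeuN- (4.29-fold higher), while the protein kinase C genes Prkcd and Prkcq were 6.09-fold and 8.04-fold lower. Of the intracellular calcium release channels, Ryr2 was 3.88-fold higher and Itpr2 7.29-fold lower. Gnb4, a G protein beta subunit, had 0.419 and 0.559 FPKM in NeuN+ and 18.1 and 19.5 FPKM in NeuN- (13.5-fold lower), and Rgs4 and Rgs7, which end G protein signals, were 8.87-fold lower and 3.86-fold higher.

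Signalling pathways that pattern the cerebellum were counted next, and their counts depended on the filter. With 5 FPKM required in 2 libraries, Notch genes gave 3 higher and 2 lower, Hedgehog genes 1 and 2, BMP and TGF-beta genes 3 and 11, and Wnt genes 2 and 4. In the Hedgehog pathway, through which Purkinje cells drive granule cell precursors and Bergmann glia, 8 of 13 features were members, with 3 higher and 5 lower. Smo, the signal transducer, had 1.78 and 2.13 FPKM in NeuN+ and 9.12 and 8.38 FPKM in NeuN- (3.32-fold lower). The transcription factors Gli1 and Gli2 were 3.06-fold and 2.77-fold lower, and the ligand-binding genes Hhip and Gas1 3.24-fold and 2.81-fold lower. The coreceptors Boc and Cdon were 3.24-fold and 1.84-fold higher, with Boc at 18.3 and 18.7 FPKM in NeuN+ and 5.37 and 4.74 FPKM in NeuN-. The inhibitor Sufu was 1.19-fold higher, and its call was lost when any 1 of the 4 cerebellar libraries was left out (limma adjusted p of 0.0591 to 0.109) or at a pseudocount of 0.1 (0.122). All 8 members passed, and 4 of them reached the level in NeuN- alone and 1 in NeuN+ alone.

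The Notch pathway, by which neighbouring cells hold each other's fate, had 3 of 14 members higher, 9 lower and 2 not passing, 6 having reached the level in NeuN- alone. The receptors Notch1 and Notch2 were 2.59-fold and 1.74-fold lower, Notch2 without a call under quantile normalization, the ligand Jag1 2.81-fold and the target Hes1 2.63-fold lower, with 1.62 and 2.16 FPKM in NeuN+ and 6.6 and 6.46 FPKM in NeuN-. Dner, a neuronal ligand for the Notch of Bergmann glia, was 1.34-fold higher, the target Hey1 1.71-fold and the coactivator Maml3 2.62-fold higher. Rbpj, the DNA-binding partner, was 1.19-fold lower (limma adjusted p = 0.0115), and its call was lost without NeuN+ replicate 1 (adjusted p = 0.0561) or NeuN- replicate 2 (0.0666).

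BMP and TGF-beta genes had 8 members higher, 15 lower and 5 not passing of 28. Among the 28 members, 6 reached the level in NeuN- alone and 2 in NeuN+ alone. The BMP antagonist gene Chrd had 31.7 and 37.1 FPKM in NeuN+ and 4.93 and 4.59 FPKM in NeuN- (6.17-fold higher), although it overlaps Thpo, and the chordin-cleaving protease gene Bmp1 was 2.5-fold higher. The BMP target genes Id3 and Id4, inhibitors of helix-loop-helix factors, were 17.3-fold and 13.8-fold lower, with Id3 at 1.19 and 2.88 FPKM in NeuN+ and 49 and 48.8 FPKM in NeuN-. In the Wnt pathway, 14 of 40 features were members, with 3 higher and 8 lower, and 5 of the 14 reached the level in NeuN- alone. Wnt7a, which granule cells secrete, had 27.6 and 28.5 FPKM in NeuN+ and 5.37 and 6.64 FPKM in NeuN- (4.18-fold higher), and the Wnt receptor genes Fzd7 and Fzd1 were 2.67-fold higher and 5.58-fold lower. Tcf7l2, a nuclear effector of Wnt in oligodendrocytes, had 0.271 and 0.387 FPKM in NeuN+ and 9.49 and 10.2 FPKM in NeuN- (8.33-fold lower).

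Among transcription factors, the helix-loop-helix and the Sox, Fox and Klf families leaned to NeuN-. Of 35 helix-loop-helix members 8 were higher and 20 lower, and of 31 Sox, Fox and Klf members 8 were higher and 17 lower, 14 of these 31 having reached the level in NeuN- alone. Neurod1, a factor of granule cell differentiation, had 127 and 126 FPKM in NeuN+ and 48.2 and 51.5 FPKM in NeuN- (2.51-fold higher). Sox8, of oligodendrocytes, had 1.02 and 0.567 FPKM in NeuN+ and 17 and 18.6 FPKM in NeuN- (10.7-fold lower), and Sox6 was 6.44-fold lower. Homeobox genes were even, with 14 of 36 members higher and 13 lower. Otx2, a patterning factor of the posterior cerebellum, had 6.25 and 7.11 FPKM in NeuN+ and 1.42 and 1.19 FPKM in NeuN- (3.36-fold higher), and Pax3 was 5.48-fold lower. The list of Zic, Gli, Nfi, Ets and nuclear receptor genes had 15 higher and 16 lower of 42, and Rora, required by Purkinje cells, had 19.3 and 17.6 FPKM in NeuN+ and 48.6 and 52.2 FPKM in NeuN- (2.64-fold lower).

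Genes for oxidative metabolism and protein synthesis rose a little in large numbers. Of 90 oxidative phosphorylation members 54 were higher, 9 lower and 27 did not pass (median log2 change 0.31). Changes of at least 2-fold were found in 2 members upward and in 2 downward, with extreme log2 changes of 1.35 and -2.54. Ndufa10, a subunit of complex I, had 141 and 144 FPKM in NeuN+ and 54.5 and 56.7 FPKM in NeuN- (2.54-fold higher). Mitochondrial ribosomal proteins had 43 higher and 16 lower of 77, cytosolic ones 38 higher and 11 lower of 83, and proteasome subunits 22 higher and 4 lower of 36. Without NeuN- replicate 1, 7 cytosolic ribosomal proteins were lower instead of 11. Rps4l, a ribosomal protein gene copy that overlaps Tmtc1, was the exception in size, at 9.88 and 8.79 FPKM in NeuN+ and 51.6 and 52.6 FPKM in NeuN- (5.15-fold lower).

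Genes of fuel handling before the mitochondrion went both ways, as did all members, of which 34.8% were higher and 40.3% lower. Of 21 energy supply members 6 were higher, 11 lower and 4 did not pass, and 4 of the 21 reached the level in NeuN- alone. Under quantile normalization 7 were higher and 8 lower. The neuronal glucose transporter gene Slc2a3 had 20.4 and 22.2 FPKM in NeuN+ and 10.2 and 11.3 FPKM in NeuN- (1.9-fold higher), and the glial and endothelial Slc2a1 was 1.72-fold lower. The hexokinase genes Hk1 and Hk2 went opposite ways, Hk1 1.27-fold higher and Hk2 8.57-fold lower, with Hk2 at 0.694 and 0.448 FPKM in NeuN+ and 11.7 and 12.8 FPKM in NeuN-. The call of Hk1 was lost without NeuN+ replicate 1 or NeuN- replicate 1 (limma adjusted p = 0.123 in both). Of glycogen genes, 3 were examined. Ppp1r3c, which targets a phosphatase to glycogen, had 0.024 and 0.0427 FPKM in NeuN+ and 9.63 and 9.18 FPKM in NeuN-, and the phosphorylases Pygm and Pygb were 2.69-fold and 1.45-fold lower, Pygb without a call under quantile normalization. The aldolase genes Aldoa and Aldoc were 1.42-fold higher and 2.12-fold lower.

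Lipid and detoxifying enzymes were lower in NeuN+ in most members. Cytochromes P450, glutathione transferases and aldehyde dehydrogenases had 55 members of 188 features, with 7 higher and 40 lower (median log2 change -1.07; 15 reached the level in NeuN- alone). Cyp2j6, a cytochrome P450, had 0.543 and 0.311 FPKM in NeuN+ and 28.8 and 29.6 FPKM in NeuN- (21.6-fold lower). Fatty acid and sterol genes had 13 higher and 40 lower of 65. Cpt1a, which admits fatty acids to mitochondria, had 0 and 0.0129 FPKM in NeuN+ and 7.09 and 8.37 FPKM in NeuN- (8.85-fold lower), and the acyl-CoA synthetase gene Acsbg1 was 5.55-fold lower. Solute carriers as a whole had 68 higher and 103 lower of 207, with the cation exporter Slc47a1 25.7-fold lower and the amino acid transporter Slc6a15 4.3-fold higher.

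**Figure D5:**
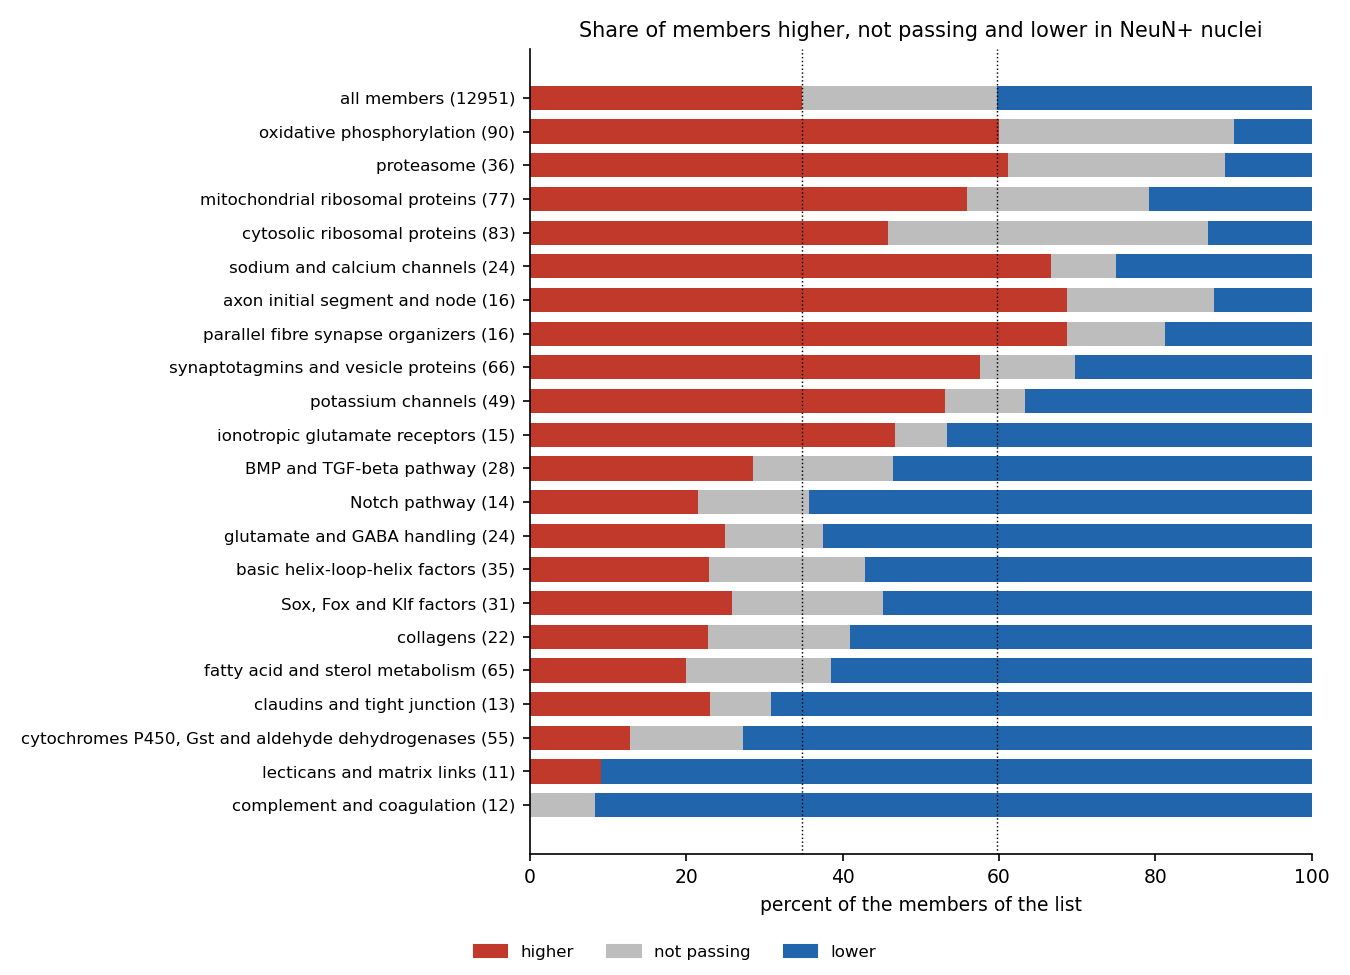
Percent of the members of each gene list that were called higher in NeuN+ (red), did not pass (grey) or were called lower (blue), with the number of members in parentheses; dotted lines mark all 12951 members, 34.8% higher and 40.3% lower. Mitochondrial, proteasome and axonal channel lists have red bars beyond the first line, and lipid, junction, matrix and complement lists have blue bars that start left of the second.

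Matrix and junction genes were lower in most cases. Lecticans, the proteoglycans of perineuronal matrix, and their partners had 10 of 11 members lower. Bcan, the lectican of glial membranes, had 7.45 and 8.09 FPKM in NeuN+ and 84 and 83.5 FPKM in NeuN- (9.69-fold lower), and the link protein gene Hapln2 of myelinated axons 8.37 and 6.53 FPKM in NeuN+ and 158 and 168 FPKM in NeuN- (19.6-fold lower). Hapln4, the link protein of inhibitory synapses on nuclear neurons, was the exception, with 21.1 and 19.9 FPKM in NeuN+ and 7.66 and 7.15 FPKM in NeuN- (2.57-fold higher). Of 22 collagen members 5 were higher and 13 lower, 11 having reached the level in NeuN- alone, with Col9a3 27.2-fold lower (it overlaps Tcfl5) and Col19a1 3.63-fold higher. Gap junction genes had 1 of 9 members higher and 7 lower, where 3 of the 9 reached the level in NeuN- alone and 1 in NeuN+ alone. The astrocytic connexin genes Gja1 and Gjb6 were 6.14-fold and 8.87-fold lower. Of 13 claudin and tight junction members 3 were higher and 9 lower, where 6 of the 13 reached the level in NeuN- alone and 1 in NeuN+ alone. The tricellular junction gene Marveld2 had 17.4 and 18.1 FPKM in NeuN+ and 2.7 and 2.45 FPKM in NeuN- (5.27-fold higher).

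Immune genes went both ways, as did all members, of which 34.8% were higher and 40.3% lower. Of 16 members of the antigen presentation and interferon list 5 were higher and 11 lower, 8 having reached the level in NeuN- alone. The transcription factors Stat2 and Irf9, which take part in the type I interferon signal, were 2.32-fold and 1.68-fold higher, with Stat2 at 54.3 and 52.1 FPKM in NeuN+ and 22.3 and 22.5 FPKM in NeuN-. The interferon-induced genes Ifit3, Isg15 and Ifi27 were 4.16-fold, 2.48-fold and 7.66-fold lower. Ifitm3 and the transcription factor gene Irf1 read 0 in each NeuN+ library and 5.19 and 8.27 FPKM and 8.42 and 8.8 FPKM in NeuN-. Class I antigen genes split as well, H2-D1 being 1.48-fold higher and H2-K1 3.59-fold lower; these related genes share sequence, so their FPKM may exchange reads. Of 12 complement and coagulation members 11 were lower and 1 did not pass, and 5 of the 12 reached the level in NeuN- alone. F3, the initiator of clotting made by astrocytes, was at 5.18 and 6.06 FPKM in NeuN+ and 109.9 and 113 FPKM in NeuN- (17-fold lower). Among receptors and ligands of cytokines, 25 of 76 members were higher and 36 lower, where 20 of the 76 reached the level in NeuN- alone and 10 in NeuN+ alone. Il18, a cytokine, was 13.2-fold lower and the receptor gene Il17re, at 9.09 and 9.09 FPKM in NeuN+ and 1.04 and 0.889 FPKM in NeuN-, 5.2-fold higher.

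Regulators of RNA and chromatin held large changes in both directions, and their counts are set against 34.8% higher and 40.3% lower over all members. Splicing regulators had 40 members higher, 26 lower and 24 not passing of 90, and 17 were lower without NeuN- replicate 1. Srrm3, which drives neuronal microexons, had 38.7 and 41.9 FPKM in NeuN+ and 7.91 and 8.96 FPKM in NeuN- (4.39-fold higher), and Qk, the quaking protein of myelinating glia, had 7.71 and 8.6 FPKM in NeuN+ and 40.0 and 42 FPKM in NeuN- (4.6-fold lower). Chromatin remodelling and DNA methylation genes had 19 higher and 16 lower of 46. Chd7, a remodeller required in granule cell precursors, had 46.1 and 47.5 FPKM in NeuN+ and 16.2 and 17.6 FPKM in NeuN- (2.67-fold higher). Chromatin writers and erasers had 29 higher and 23 lower of 73, among them the demethylase gene Kdm3a (2.88-fold lower). Of 10 members among nuclear long noncoding RNAs 6 were higher, 3 lower and 1 did not pass; Ftx, of the X inactivation centre, had 37.5 and 39.9 FPKM in NeuN+ and 8.19 and 8.28 FPKM in NeuN- (4.31-fold higher), and Sox2ot, which overlaps Sox2, was 5.84-fold lower. Of 16 snoRNA host members 4 were higher, 5 lower and 7 did not pass; without NeuN+ replicate 1 or replicate 2, 3 were lower, and without NeuN- replicate 1 or replicate 2, 2 were lower. Gas5 and Snhg14 were 2.18-fold and 2.56-fold lower, and Snhg11 was 1.36-fold higher.

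Set beside the same gates in prefrontal cortex of the same mouse, the cerebellar change was called in the same direction more often than in the opposite one. The prefrontal gates were not checked against markers here. Of the 12951 members 4459 were higher in prefrontal NeuN+ (34.4%) and 4795 lower (37.0%). Both regions gave a call in the same direction for 4792 members (37.0%), 2109 higher and 2683 lower. Opposite calls were found for 2413 (18.6%), of which 1169 were higher in cerebellum and lower in prefrontal cortex and 1244 the reverse. The difference between the regions was called for all of these members, so that call added no further condition. The difference itself, cerebellar minus prefrontal change, was called above 0 for 4255 members (32.9%) and below 0 for 4777 (36.9%). That split depends on scaling, at 5272 above and 3809 below without scaling, 3375 and 5730 after rescaling to a common sum, and 4471 and 4333 after quantile normalization.

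Several genes of high level were among those with opposite calls. Prefrontal FPKM summed to 307198 and 305654 in NeuN+ and to 426851 and 414230 in NeuN-. The scaling factors were 1.036 and 1.035 in prefrontal NeuN+ and 0.869 and 0.887 in prefrontal NeuN-. Deposited FPKM therefore overstate how far prefrontal NeuN- lies above prefrontal NeuN+, whereas the calls used scaled FPKM. Cox8a, 1.6-fold higher in cerebellar NeuN+, had 707 and 676 FPKM in prefrontal NeuN+ and 1237 and 1005 FPKM in prefrontal NeuN-. Snap25 had 980.2 and 976 FPKM in prefrontal NeuN+ and 1579 and 1664 FPKM in prefrontal NeuN-, so that its order between the gates was turned round. All 7 respiratory chain and ATP synthase genes of the largest differences were lower in prefrontal NeuN+ and higher in cerebellar NeuN+. Gabrb1, 30.3-fold lower in cerebellar NeuN+, had 87.1 and 86.7 FPKM in prefrontal NeuN+ and 96.1 and 104 FPKM in prefrontal NeuN- and did not pass there.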

How the data were processed

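RNA of FACS-sorted nuclei was measured in 8 libraries of mouse M3: 2 each of cerebellum NeuN+, cerebellum NeuN-, prefrontal NeuN+ and prefrontal NeuN-. The deposited values are FPKM per gene feature, with confidence limits and a status; per the submitters' processing notes, which name tools without roles, Trim Galore 0.3.7, Bowtie 1.1.1, TopHat2 2.1.1, Bismark and Cufflinks were used with builds mm9 and hg19. Neither annotation nor strand is given in the sources used here. The authors' FPKM hold no counts, so absolute depth is unknown, counting intervals cannot be given, and no count test was run.

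From these values, FPKM were scaled by median of ratios over 9109 features of at least 1 FPKM in all 8 libraries, and limma 3.58.1 was run on log2(scaled FPKM + 1) (R 4.3.3, variance trend, 4 residual degrees of freedom) for 14376 features of at least 1 FPKM in 2 libraries, with Benjamini-Hochberg adjustment. Calls are two-sided, at an adjusted p under 0.05. Cerebellar and prefrontal changes were compared by an interaction term. Of 24854 features 114 had no match in the RefSeq table (GRCm38.p6), from which gene types and promoters were taken.

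Genes were named by size of change (12 in each direction), by difference of level (12), by list (up to 2 in each direction, of at least 5 scaled FPKM where possible) and by interaction (6), plus markers. Predicted genes, small RNA features and histone genes were left out of the choices by size, level and interaction. Members, lists and tests were chosen with earlier results of these data known. Alternatives were other scalings, pseudocounts, filters, libraries, no variance trend, a replicate block and leaving out each library. Some genes are not reported here.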

Additional observations from a re-analysis of the deposited data

Results flagged for a closer look

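The change between the gates differed between cerebellum and prefrontal cortex, by limma's interaction term, for 12 genes named for opposite calls in the regions and the size of that difference, among features of at least 5 scaled FPKM that were no predicted gene, small RNA or histone gene. In Ccdc69 and Syt10 a gate was listed at 0 in both libraries, which leaves the size of the difference to the pseudocount, so FPKM alone are given for them. A positive value means a higher NeuN+ over NeuN- log2 change in cerebellum than in prefrontal cortex.

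Grin2c, the NMDA receptor subunit, had a difference of 7.24 (SE 0.0695, adjusted p = 8.2e-08). It had 131 and 132 FPKM in cerebellar NeuN+ and 14.7 and 14.2 FPKM in cerebellar NeuN-, and 0.236 and 0.26 FPKM in prefrontal NeuN+ and 24.9 and 23.3 FPKM in prefrontal NeuN-. The high libraries were the NeuN+ ones in cerebellum and the NeuN- ones in prefrontal cortex. Lyn, a Src family kinase known from microglia, differed by 4.21 (SE 0.125), with 10.6 and 11.8 FPKM in cerebellar NeuN+ and 5.9 and 5.29 FPKM in cerebellar NeuN-, and 0.208 and 0.203 FPKM in prefrontal NeuN+ and 12 and 13.2 FPKM in prefrontal NeuN-. The differences were 4.74 for the membrane protein gene Tmem51 (SE 0.104), 4.17 for the small heat shock gene Hspb6 (SE 0.412) and 4.11 for Phxr4 (SE 0.106). The coiled-coil gene Ccdc69 had 7.81 and 7.46 FPKM in cerebellar NeuN+ and was listed at 0 in cerebellar NeuN-, and it was listed at 0 in prefrontal NeuN+ and had 1.6 and 1.97 FPKM in prefrontal NeuN-.

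In the other direction Abi3bp, a matrix-binding protein gene, had a difference of -6.33 (SE 0.0882, adjusted p = 2.8e-07). It had 2.0 and 1.99 FPKM in cerebellar NeuN+ and 42.4 and 42.9 FPKM in cerebellar NeuN-, and 5.45 and 5.81 FPKM in prefrontal NeuN+ and 0.264 and 0.304 FPKM in prefrontal NeuN-. The collagen gene Col6a1 differed by -5.66 (SE 0.158), the cytokine signal inhibitor gene Socs2 by -5.27 (SE 0.101), the polo-like kinase gene Plk2 by -5.08 (SE 0.0927) and Pip5kl1 by -4.96 (SE 0.158). Plk2 had 0.96 and 1.02 FPKM in cerebellar NeuN+ and 17.5 and 18.9 FPKM in cerebellar NeuN-, and 183 and 176 FPKM in prefrontal NeuN+ and 57.6 and 62.8 FPKM in prefrontal NeuN-. The synaptotagmin gene Syt10 was listed at 0 in cerebellar NeuN+ and had 22.1 and 22.1 FPKM in cerebellar NeuN-, and had 2.47 and 3.71 FPKM in prefrontal NeuN+ and 1.66 and 2.05 FPKM in prefrontal NeuN-. The largest adjusted p of the other 10 genes was 1.6e-04 (Hspb6).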

How the results depend on the processing

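Of 115 recomputed counts over all members, 111 stayed within 1.5 times the value reported and 4 moved. A pseudocount of 5 left 421 members at least 2-fold higher and 876 at least 2-fold lower, in place of 1176 and 2429, since a larger pseudocount shrinks each fold. A filter of 5 FPKM in 2 libraries left 1613 at least 2-fold lower. Keeping members that reach 1 FPKM in both gates, an alternative chosen after seeing the data, left 1124; leaving out members that overlap another feature, chosen likewise, moved none of the 4 counts beyond 1.5 times. Leaving out 1 library at a time gave 3995 to 4044 higher, 4766 to 4855 lower, 1156 to 1187 at least 2-fold higher and 2405 to 2445 at least 2-fold lower; for the difference between regions, 3920 to 4045 were above 0 and 4401 to 4520 below, with 2095 to 2208 opposite.

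Deviations of cerebellar libraries with the same replicate number hardly correlated between the gates (-0.045 over 14376 features). With 2 libraries a group this cannot decide whether such libraries share a preparation. With the replicate block 4439 members were higher and 5181 lower, 1177 and 2429 of them by at least 2-fold, and 4215 and 4686 differed between the regions. Among the 375 named results, none that was called changed sign in any setting, and 10 lost a call in some setting. Besides those given above, Ccdc153 lost it, as did Chrnb2 and Sufu, at a pseudocount of 0.1 (limma adjusted p = 0.0515, 0.0677 and 0.122), and Klf9 without each single cerebellar library (highest adjusted p = 0.11); Notch2 and Pygb reached 0.104 and 0.436 under quantile normalization. The 3 genes that had not passed changed sign. The log2 change of Slc32a1 (-0.10) became 0.199 and that of Pcp2 (0.09) -0.0232 under quantile normalization. That of P2ry12, near 0, became 0.229 under quantile normalization, 0.00392 at a pseudocount of 5, and between -0.231 and 0.230 with 1 cerebellar library left out; the causes were not tested. Of 176 list counts, 57 moved beyond 1.5 times under the filter of 5 FPKM, which tests fewer genes, 7 under quantile normalization and at most 8 under any other setting. Depth limits features near 1 FPKM, where short RNAs and values of 0 are least certain.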
